A study of Mus musculus with 40 samples.

Results

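The 10 genes described here, H19, Igf2, Dlk1, Meg3, Peg3, Mest, Grb10, Cdkn1c, Plagl1 and Sgce, are imprinted genes, most of them regulators of growth. They were taken as the rows of the count table whose symbol equals 1 of these names, which gave 10 of 53863 symbols, each on a single line. RNA was sequenced from 4 tissues of wild-type adult C57BL/6 mice: the brown fat between the shoulder blades (interscapular, BAT), 2 white fat depots, of which 1 is under the skin (inguinal, iWAT) and 1 beside the epididymis (eWAT), and the liver. All mice were housed at 22 °C on a standard diet and then spent 24 h either at 30 °C, the thermoneutral condition, or at 4 °C, the cold condition. Their exact age is not given in the sources used here. Each of the 8 groups of tissue and exposure held 5 libraries, 40 in all. Mice kept at the housing temperature were not analysed here, so both exposures were a change from it. The labels do not say whether libraries with the same replicate number came from the same mouse, so p-values measure only the spread between these libraries.

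An imprinted gene is transcribed mainly from the copy inherited from 1 parent, because a nearby control region is methylated in the egg or in the sperm. In mice many genes read from the father's copy promote growth of the fetus, and many genes read from the mother's copy restrain it. Several are also used in fat: Dlk1 holds back the differentiation of preadipocytes, Mest rises in mice as fat mass expands, and Grb10 damps the receptors for insulin and IGF1. The counts add both copies of each gene, so they carry no information on which parental copy was read. In such bulk samples, fewer cells of a type and less RNA per cell cannot be told apart.

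Total counts per library ran from 46508261 to 86681722. Levels are given as CPM, counts scaled by a library size set with the trimmed mean of M values (TMM), and levels of different genes were compared only as CPM per kb of exon. The summed level of 6 adipocyte markers was 7867 to 30345 CPM in the 30 adipose libraries and 27.2 to 58.0 CPM in the 10 liver libraries, and the 5 hepatocyte markers summed to 149898 to 188193 CPM in liver. Tissue of other kinds was also present in some libraries. The 7 skeletal muscle markers summed to 10864 CPM in thermoneutral iWAT replicate 3, and the 4 epididymis markers summed to 2035 and 901 CPM in cold eWAT replicates 1 and 4. From how the lines of repeated symbols repeat, the 5 thermoneutral liver columns were inferred to have been joined from a table of their own. The labels do not state this. If so, exposure in liver cannot be told apart from the table of origin.

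Peg3, which rose in cold BAT and iWAT, and Meg3, a long noncoding RNA that fell in cold BAT, share an 8-base palindrome in the 250 bases before a transcript start, and those windows are shown for that reason. The sequences are from RefSeq on GRCm38.p6, written 5′ to 3′ on the gene's strand, at chr7:6730420-6730669 (minus strand) for Peg3 and chr12:109540746-109540995 (plus strand) for Meg3, the first of its 2 windows. Capitals mark TGACGTCA, the full cAMP response element, searched on both strands.
Peg3: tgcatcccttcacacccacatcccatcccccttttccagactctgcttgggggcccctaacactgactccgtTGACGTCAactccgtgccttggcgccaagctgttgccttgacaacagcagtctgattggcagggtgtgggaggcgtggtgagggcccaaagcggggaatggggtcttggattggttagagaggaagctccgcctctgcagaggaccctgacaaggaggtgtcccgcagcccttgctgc
Meg3: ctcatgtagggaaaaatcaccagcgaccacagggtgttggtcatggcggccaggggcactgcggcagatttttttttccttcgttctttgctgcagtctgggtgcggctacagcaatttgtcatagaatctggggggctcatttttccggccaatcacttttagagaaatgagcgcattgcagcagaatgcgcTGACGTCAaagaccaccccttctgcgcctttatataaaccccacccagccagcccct
Of 32851 promoter windows of the same length, 1.55% held TGACGTCA. The shorter core TGACG or CGTCA, of which each full element holds an overlapping pair, stood in 17.8% of windows. That core was also found once in the Dlk1 window, in the third of 4 Igf2 windows and in the second of 2 Grb10 windows, and 0 times in the second Meg3 window and in the Zim1 window. A nuclear receptor half-site, AGGTCA or TGACCT, was searched as well and stood in 14% of windows. It was found in the first Igf2 window and the second Meg3 window, and not in the windows shown. The table matched 7 of the 10 genes with 14 windows. A match is a run of letters, not a measured binding site, and Peg3 and Meg3 moved in opposite directions in BAT.

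H19, Igf2, Meg3 and Mest are also host genes of microRNAs, whose short mature forms libraries of this kind are not made to capture. One each of H19 and Mest is shown, with the seed, bases 2 to 8, in capitals, since it lies inside a gene whose counts are reported here. The sequences are from RefSeq on GRCm38.p6, at chr7:142577112-142577133 (minus strand) and chr6:30741314-30741336 (plus strand).
miR-675-5p: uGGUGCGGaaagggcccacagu
miR-335-5p: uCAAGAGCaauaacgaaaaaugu
Their seeds differ, and the symbols of both precursors had a count of 0 in the 40 libraries.

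Cold changed 7 of the 10 genes in BAT, 1 in iWAT, 1 in eWAT and 0 of the 8 that could be tested in liver, by edgeR's quasi-likelihood test with a Benjamini-Hochberg adjusted p under 0.05 over all genes of a tissue. In BAT Sgce, Meg3, Dlk1, Mest and Plagl1 fell, and Peg3 and Cdkn1c rose. In iWAT Peg3 rose, and in eWAT Grb10 rose. Of all genes tested 60.2% were called for BAT, 11.5% for iWAT, 3.78% for eWAT and 1.66% for liver, so the share of 7 in 10 in BAT is near that of any gene there. Of all genes 30.2% were called higher and 30.0% lower in BAT, 7.20% were higher in iWAT and 1.77% were higher in eWAT. The median log2 change of the 10 genes was -0.42 in BAT beside -0.04 for all genes tested, -0.13 beside -0.05 in iWAT and -0.04 beside -0.05 in eWAT. The 5 thermoneutral and 5 cold libraries did not overlap for 2 of the 10 genes in BAT (46.4% of all genes), 1 in iWAT (11.8%), 2 in eWAT (7.57%) and 1 of 8 in liver (5.15%).

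**Figure D1:**
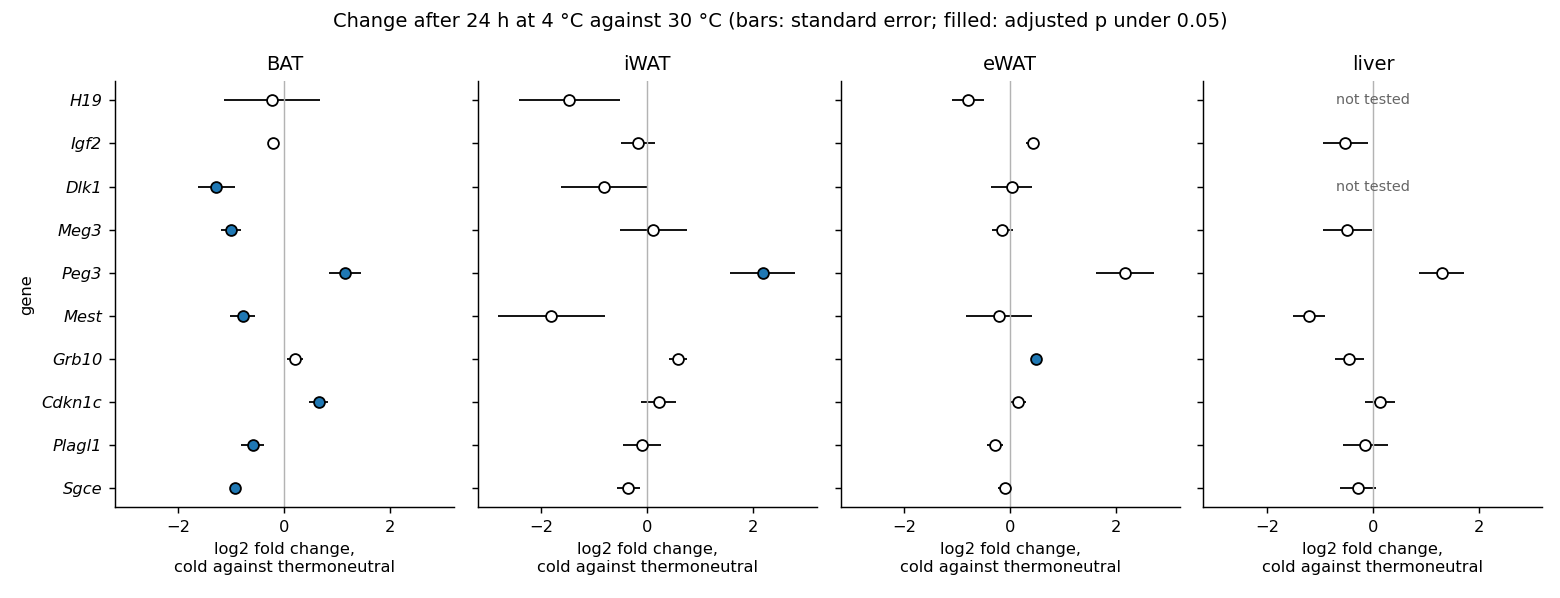
Log2 fold change of the 10 genes, cold against thermoneutral, in 4 tissues, with bars for the standard error of the fit (5 libraries a group). Filled points have an adjusted p under 0.05 by edgeR: 7 in BAT, 1 in iWAT (Peg3), 1 in eWAT (Grb10) and 0 in liver, where H19 and Dlk1 were below the filter on low counts.

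Peg3 encodes a zinc finger protein read from the father's copy (chr7:6703892-6730431, minus strand, GRCm38, as for all gene positions here). In BAT its levels were 13.7, 28.9, 15.9, 20.8 and 21.04 CPM in thermoneutral replicates 1 to 5 and 50.9, 24.1, 29.1, 42.6 and 70.9 CPM in cold replicates 1 to 5. The groups overlapped only through thermoneutral replicate 2, which lay above cold replicate 2. In iWAT the levels were 5.67, 19.3, 25.7, 24.8 and 25.1 CPM at thermoneutrality and 234, 45.5, 92.6, 26.01 and 64.8 CPM in the cold. Here every cold library was above every thermoneutral one, cold replicate 4 by a small margin. In eWAT they were 9.82, 22.4, 38.99, 25.7 and 25.9 CPM and 181, 60.2, 189, 31.7 and 88.3 CPM. Cold replicate 4, again the lowest, was below thermoneutral replicate 3.

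Peg3 was thus 2.21-fold higher in cold BAT, a log2 change of 1.15 ± 0.31 (SE; edgeR adjusted p = 0.0082). It was 4.52-fold higher in cold iWAT (2.18 ± 0.61, adjusted p = 0.0457) and 4.5-fold higher in cold eWAT (2.17 ± 0.54), which missed the threshold with an edgeR adjusted p of 0.0571. The iWAT call was lost when any single library other than cold replicate 4 was left out, with log2 changes of 1.47 to 2.32 and edgeR adjusted p-values from 0.0564 to 0.0982. It was also lost with scaling by library totals (2.06, edgeR adjusted p = 0.0501). The eWAT value passed without cold replicate 4 (2.41, edgeR adjusted p = 0.0413) and did not pass without both libraries that held epididymis markers (2.21, adjusted p = 0.0891). Those libraries, cold replicates 1 and 4, had 181 and 31.7 CPM of Peg3, the second highest and the lowest of the cold group. In iWAT the sum of 8 lymphocyte markers was 642, 196, 130, 50.8 and 385 CPM at thermoneutrality and 2.40, 47.9, 3.69, 337 and 129 CPM in the cold, so that cold replicates 1 and 3, highest in Peg3, were lowest in these markers. The covariate fitted, the lymphocyte score, was the mean log2 CPM of these 8 markers, not their sum. With that score the Peg3 change was 0.91 in iWAT (edgeR adjusted p = 0.191) and 0.79 in BAT (0.291).

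Zim1, a neighbouring zinc finger gene that is read from the mother's copy in mice (chr7:6671269-6696450, minus strand), was chosen for BAT and iWAT after its values were seen. In iWAT it had 0.756, 0.751, 1.202, 0.952 and 0.888 CPM at thermoneutrality and 11.4, 4.41, 5.69, 1.37 and 1.92 CPM in the cold. In eWAT it had 0.557, 0.518, 0.855, 0.798 and 0.7103 CPM and 8.78, 2.85, 6.12, 1.03 and 2.34 CPM. In both white depots every cold library was above every thermoneutral one, and cold replicate 4 was the lowest of the cold libraries for Zim1 as for Peg3. In BAT the direction was the opposite, with 4.56, 4.19, 3.31, 3.27 and 4.77 CPM at thermoneutrality and 2.97, 3.05, 3.24, 2.51 and 2.33 CPM in the cold, and the groups were only just apart.

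The log2 change of Zim1 was 2.41 ± 0.53 in iWAT, 2.62 ± 0.54 in eWAT and -0.48 ± 0.16 in BAT, with edgeR adjusted p-values of 0.0201, 0.0314 and 0.0214. The difference of the cold effect itself was tested, and it was 2.95 ± 0.67 for iWAT minus BAT (edgeR adjusted p = 0.00148) and 3.13 ± 0.67 for eWAT minus BAT (0.000582). For Peg3 the same differences were 1.08 ± 0.70 and 1.05 ± 0.70 and were not called (edgeR adjusted p = 0.332 and 0.327). The Zim1 calls within a tissue were easily lost: in eWAT without any single library other than cold replicates 4 and 5 (adjusted p up to 0.0845), in iWAT without thermoneutral replicate 2 (0.0538), and in BAT without thermoneutral replicate 1 or 5 or cold replicate 4 or 5 (0.0514 to 0.0645). With the lymphocyte score as a covariate the Zim1 change in iWAT was 1.11 and not called (adjusted p = 0.0524). The calls of the differences held without each library in turn. At thermoneutrality Zim1 was lower in iWAT and eWAT than in BAT by log2 -2.14 and -2.54 (edgeR adjusted p = 0.000378 and 3.91e-05).

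**Figure D2:**
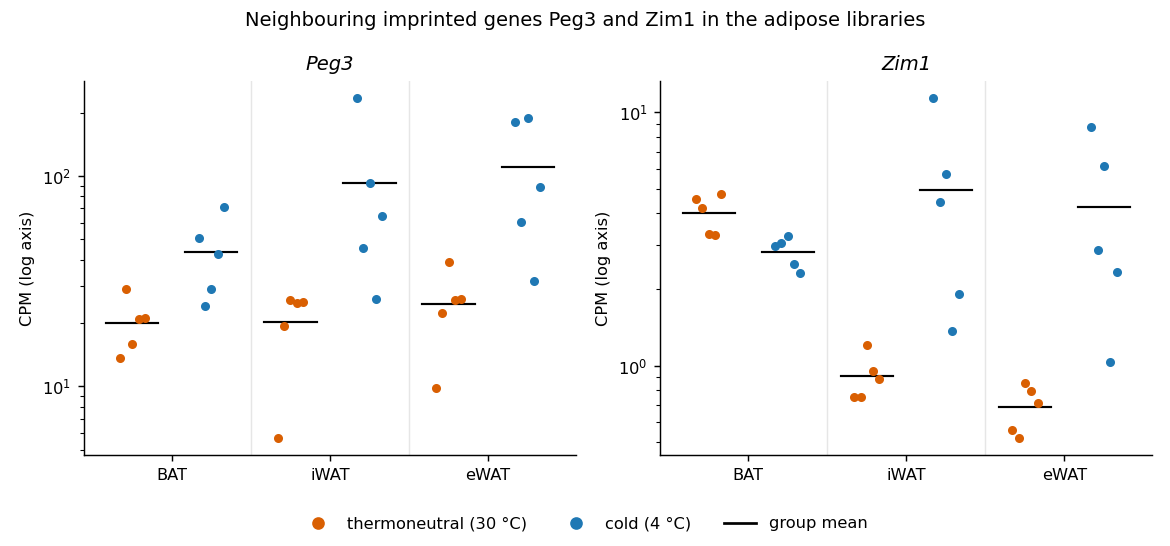
CPM (log axes) of the neighbouring genes Peg3 and Zim1 in the 30 adipose libraries; points are libraries and lines are group means. Peg3 means rise with cold in each depot, while Zim1 means rise in iWAT and eWAT and fall in BAT.

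Grb10, an adaptor protein that binds the insulin and IGF1 receptors and damps their signalling (chr11:11930508-12038683, minus strand), was highest in the cold white depots. In eWAT it had 43.8, 38.9, 39.5, 42.3 and 40.7 CPM at thermoneutrality and 52.05, 65.5, 53.8, 61.5 and 60.1 CPM in the cold. The groups did not overlap, and the spread within each was small. In iWAT it had 27.9, 37.02, 40.3, 46.2 and 34.6 CPM and 67.02, 51.2, 74.8, 47.9 and 43.7 CPM. These groups overlapped only through thermoneutral replicate 4, which was above cold replicate 5. In BAT 4 of the 5 cold libraries lay between 15.8 and 18.4 CPM, within the thermoneutral range of 14.1 to 18.9 CPM, and cold replicate 1 stood apart at 28.3 CPM. The rise was 1.41-fold in eWAT (log2 0.49 ± 0.07, edgeR adjusted p = 0.00729), and it was 0.55 (adjusted p = 0.0305) without both libraries that held epididymis markers. With the lymphocyte score as a covariate it was 0.52 and not called (edgeR adjusted p = 0.242). In that fit 0 of all genes were called in eWAT. The eWAT rise was also not called with a block for replicate number. The iWAT value, log2 0.58 ± 0.17, missed the threshold (edgeR adjusted p = 0.0569) and passed it without thermoneutral replicate 4 (0.69, adjusted p = 0.0477) or cold replicate 4 (0.64, adjusted p = 0.0414). The BAT value was 0.20 ± 0.16 (edgeR adjusted p = 0.295). The differences of the cold effect between depots were not called (eWAT minus BAT 0.34 ± 0.26, edgeR adjusted p = 0.406; iWAT minus BAT 0.44 ± 0.26, 0.274).

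Dlk1 and Meg3 lie in the same cluster on chromosome 12 (Dlk1 at 109452823-109463336 and Meg3 at 109541001-109571726, both plus strand). Dlk1, a membrane protein read from the father's copy, keeps preadipocytes from differentiating. Meg3 is a long noncoding RNA read from the mother's copy, and without strand its reads cannot be told apart from those of Gm26906, which shares 1228 of its exon bases on the other strand. In BAT Dlk1 had 3.64, 2.65, 3.56, 2.84 and 2.23 CPM at thermoneutrality and 2.39, 0.633, 1.26, 0.582 and 1.07 CPM in the cold. Only cold replicate 1 was inside the thermoneutral range. Meg3 had 14.2, 16.1, 11.3, 17.99 and 11.2 CPM and 6.65, 5.11, 9.61, 6.94 and 6.36 CPM, without overlap. The log2 changes in BAT were -1.29 ± 0.35 for Dlk1 (2.44-fold lower, edgeR adjusted p = 0.00772) and -1.0 ± 0.19 for Meg3 (2.01-fold lower, adjusted p = 0.000604). Rian, the next noncoding RNA of the cluster (chr12:109603940-109661716, plus strand), chosen after its values were seen, fell in BAT by 0.92 ± 0.14 on the log2 scale (edgeR adjusted p = 0.00016).

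In iWAT the Dlk1-Meg3 cluster rested on a single library. Meg3 had 7.19, 8.61, 10.2, 14.6 and 11.7 CPM at thermoneutrality and 7.14, 6.05, 37.6, 4.96 and 2.69 CPM in the cold, where replicate 3 was above all other libraries of the tissue. Dlk1 had 0.365, 1.05, 1.18, 1.63 and 0.754 CPM and 0.2496, 0.229, 2.11, 0.0752 and 0.232 CPM, and cold replicate 3 was again the highest of both groups. Rian had 8.23, 11.3, 11.9, 14.1 and 9.41 CPM and 1.79, 1.36, 13., 1.14 and 0.866 CPM, and 4 of its cold libraries were below the whole thermoneutral range. Over all 10 libraries the changes of Dlk1, Meg3 and Rian were -0.82 ± 0.80, 0.12 ± 0.63 and -1.64 ± 0.72, and none was called by edgeR (adjusted p = 0.519, 0.917 and 0.163). Without cold replicate 3 they were -2.35, -1.04 and -3.12, all called (edgeR adjusted p = 0.0156, 0.0451 and 0.000585). With the lymphocyte score as a covariate Dlk1 in iWAT was -2.75 (edgeR adjusted p = 0.0276). Cold replicate 3 also had the highest sum of 8 stromal progenitor markers in the cold group, 1840 CPM beside 581 to 1014 CPM in the other 4, and its part in these values was not tested. In eWAT neither gene changed by the test, with 0.03 ± 0.39 for Dlk1 and -0.15 ± 0.20 for Meg3 (edgeR adjusted p = 0.978 and 0.787). Dlk1 was a rare transcript throughout, at 0.102 to 0.528 CPM per kb in the adipose groups.

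Igf2, the fetal insulin-like growth factor read from the father's copy (chr7:142650766-142666816, minus strand), varied little within BAT and eWAT. In BAT it had 14.6, 16.2, 20.7, 15.7 and 16.1 CPM at thermoneutrality and 13.2, 14.4, 14.2, 12.2 and 16.7 CPM in the cold. In eWAT it had 8.09, 8.31, 11.4, 9.74 and 10.8 CPM and 14.9, 11.96, 12.4, 12.6 and 13.95 CPM. The BAT groups overlapped and the eWAT groups did not, cold being higher. In eWAT the log2 change was 0.43 ± 0.12 but missed the threshold (edgeR adjusted p = 0.0831), and it was -0.21 ± 0.11 in BAT (0.113) and -0.17 ± 0.32 in iWAT (0.736). Igf2 in iWAT ran from 3.61 to 9.24 CPM at thermoneutrality and from 4.56 to 11.4 CPM in the cold.

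H19, the long noncoding RNA read from the mother's copy beside Igf2 (chr7:142575529-142578143, minus strand), varied widely between the libraries of BAT and of iWAT. In BAT it had 12.4, 5.91, 42.7, 2.16 and 23.3 CPM at thermoneutrality and 10.2, 11.5, 22.4, 0.635 and 26.4 CPM in the cold. The summed skeletal muscle markers of the same libraries were 918, 757, 4607, 195 and 2858 CPM and 1724, 662, 1121, 31.9 and 3394 CPM. In both groups the library lowest in H19 was the lowest in these markers. In iWAT H19 had 2.84, 2.52, 27.3, 2.68 and 1.45 CPM and 2.402, 0.336, 3.32, 1.204 and 6.25 CPM, and thermoneutral replicate 3, which stood apart, held the 10864 CPM of muscle markers. In eWAT H19 was 0.216 to 0.667 CPM in all 10 libraries, and the muscle markers summed to 18.6 to 66.4 CPM.

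No cold effect on H19 was called in any adipose depot. Its log2 change was -0.23 ± 0.91 in BAT, -1.47 ± 0.95 in iWAT and -0.79 ± 0.30 in eWAT, with edgeR adjusted p-values of 0.843, 0.325 and 0.191. The sign in BAT turned without thermoneutral replicate 3 (0.41) or cold replicate 4 (0.08). It also turned with the muscle score, the mean log2 CPM of the 7 muscle markers, as a covariate (0.41, edgeR adjusted p = 0.279). In iWAT the sign turned without thermoneutral replicate 3 (0.15), and with the muscle score as a covariate the change was -0.58 (edgeR adjusted p = 0.579). None of the 7 muscle markers was called in cold BAT or cold iWAT, and none was at 0 in any adipose group.

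**Figure D3:**
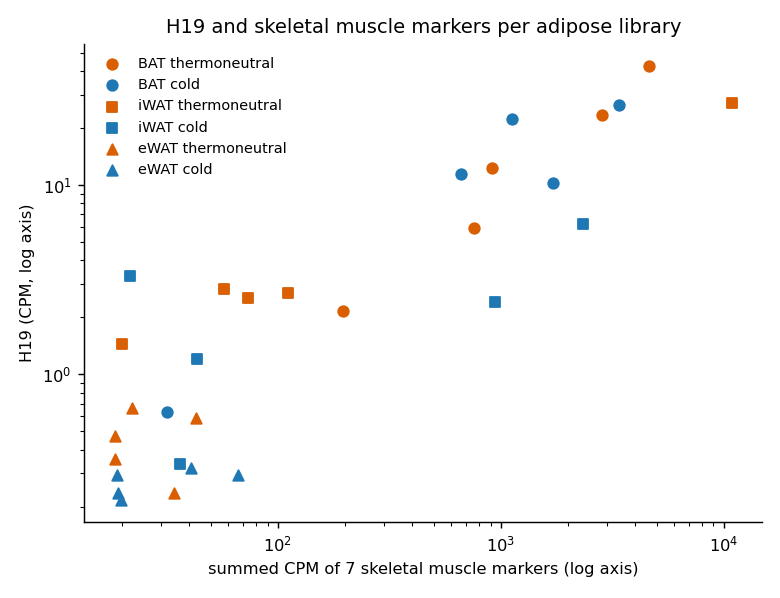
H19 (CPM) against the summed CPM of 7 skeletal muscle markers in the 30 adipose libraries, both on log axes, coloured by exposure and shaped by depot. The libraries with over 2000 CPM of muscle markers held 6.25 to 42.7 CPM of H19, and those of eWAT, with 18.6 to 66.4 CPM of markers, held 0.216 to 0.667 CPM of H19.

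Cdkn1c, a cyclin-dependent kinase inhibitor that stops the cell cycle (chr7:143458339-143461050, minus strand), was the highest of the 10 genes per length in BAT, at 18.9 CPM per kb at thermoneutrality and 28.97 in the cold. Its BAT levels were 39.3, 51.3, 33.5, 26.7 and 41.6 CPM and 80.7, 57.7, 56.05, 54.1 and 46.7 CPM. The groups overlapped only through thermoneutral replicate 2 and cold replicate 5. The rise was 1.56-fold (log2 0.64 ± 0.18, edgeR adjusted p = 0.00946), and it was 0.64 but not called with the lymphocyte score as a covariate (adjusted p = 0.139). In iWAT and eWAT it was 0.21 ± 0.33 and 0.16 ± 0.14 (edgeR adjusted p = 0.682 and 0.656). The predicted gene Gm44732 overlaps exons of Cdkn1c on the other strand and had 891 counts in all 40 libraries beside 55997 for Cdkn1c.

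Sgce, the epsilon subunit of the sarcoglycan membrane complex (chr6:4674350-4747207, minus strand), gave the smallest p-value of the 10 genes in cold BAT. In BAT it had 21.1, 19.96, 21.3, 23.1 and 18.3 CPM at thermoneutrality and 11.01, 10.9, 11.4, 9.61 and 10.5 CPM in the cold. The groups were far apart, and each was tight. The fall was 1.903-fold (log2 -0.93 ± 0.08, edgeR adjusted p = 2.33e-06), and the log2 change lay between -1.03 and -0.91 in the 7 other settings tried on all BAT libraries. In iWAT the values were 28.3 to 48.8 CPM and 19.8 to 40.2 CPM (log2 -0.35 ± 0.22, edgeR adjusted p = 0.306), and in eWAT 37.0 to 50.4 CPM and 34.6 to 46.6 CPM (-0.10 ± 0.13, 0.754). The difference of the cold effect, eWAT minus BAT, was 0.87 ± 0.33 and just missed the threshold (edgeR adjusted p = 0.0503). It was called with library totals (0.85, adjusted p = 0.0402) and without eWAT thermoneutral replicate 2 or 5 or cold replicate 4 (0.92 to 0.94, adjusted p from 0.044 to 0.048).

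Mest, a membrane enzyme of the hydrolase fold read from the father's copy (chr6:30723547-30748465, plus strand), varied widely between libraries of the white depots. In iWAT it had 3.04, 39.2, 26.7, 60.3 and 4.18 CPM at thermoneutrality and 18.8, 5.82, 11.9, 1.01 and 0.913 CPM in the cold. In eWAT it had 49.4, 94.6, 95.9, 133 and 38.1 CPM and 80.7, 57.8, 161, 9.81 and 43.4 CPM. The groups overlapped in both depots, with cold replicates 4 and 5 the lowest in iWAT and cold replicate 4 the lowest in eWAT. In BAT it had 9.11, 4.69, 5.18, 7.25 and 4.44 CPM and 4.204, 2.84, 4.68, 2.75 and 2.95 CPM. There the groups overlapped only through cold replicate 3, which was above thermoneutral replicate 5. The log2 change was -0.79 ± 0.24 in BAT (1.73-fold lower, edgeR adjusted p = 0.0133), -1.81 ± 1.0 in iWAT (0.257) and -0.21 ± 0.62 in eWAT (0.903). The direction in eWAT turned without thermoneutral replicate 4 or cold replicate 4 (0.07 in each case) or without both libraries that held epididymis markers (0.11). With the lymphocyte score as a covariate the iWAT change of Mest was -4.03 and called (edgeR adjusted p = 0.0093).

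Mest shares 912 exon bases with Copg2 on the other strand (chr6:30747554-30896794), and without strand their reads cannot be told apart there. Copg2, a coat protein subunit chosen after its values were seen, also fell in cold BAT, from 37.3, 35.6, 38.1, 37.1 and 38.5 CPM to 19.8, 25.1, 24.6, 25.4 and 23.97 CPM (log2 -0.62 ± 0.08, edgeR adjusted p = 2.41e-05). Its groups in BAT did not overlap. Across depots their levels differed: at thermoneutrality Copg2 was 37.3 ± 1.12 CPM in BAT and 37.4 ± 2.22 CPM in eWAT (SD, n = 5), and Mest was 6.13 ± 1.998 and 82.2 ± 38.6 CPM.

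Plagl1, a zinc finger transcription factor that activates other imprinted genes in mice (chr10:13060504-13131694, plus strand), was scarce in BAT and abundant in white fat. In BAT it had 1.797, 1.79, 2.45, 3.51 and 2.11 CPM at thermoneutrality and 1.54, 1.57, 1.301, 1.24 and 1.88 CPM in the cold. Thermoneutral replicate 4 was the highest, and the groups overlapped through cold replicate 5. The fall in BAT, log2 -0.60 ± 0.22 (edgeR adjusted p = 0.0351), was lost without thermoneutral replicate 3 or 4 or any of cold replicates 1 to 4 (-0.40 to -0.59, adjusted p from 0.054 to 0.0967). In iWAT and eWAT the changes were -0.09 ± 0.36 and -0.29 ± 0.15 (edgeR adjusted p = 0.879 and 0.348).

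Markers of other cell types moved with cold in BAT beside these genes. Of 8 stromal progenitor markers 5 were called lower and 1 higher, with a median log2 change of -0.77, and their sum was 501, 307, 311, 314 and 261 CPM at thermoneutrality and 204, 288, 226, 174 and 189 CPM in the cold. The 8 lymphocyte markers summed to 5.87 to 17.5 CPM and 1.57 to 9.06 CPM, with 4 called lower, and 3 of 5 Schwann cell markers were called lower. The 6 smooth muscle and pericyte markers summed to 542 to 656 CPM at thermoneutrality and 286 to 351 CPM in the cold, without overlap. Of these, the pericyte marker Rgs5 fell (log2 -1.24 ± 0.08, edgeR adjusted p = 3.47e-07), as did Notch3, while Cnn1, Tagln and Acta2, which encode contractile proteins of smooth muscle, rose. Myh11, also on this list, was at -0.22 ± 0.15 and not called (edgeR adjusted p = 0.211). The 5 hepatocyte markers summed to 1.31 to 55.97 CPM at thermoneutrality and 0.503 to 4.97 CPM in the cold, and 3 of the 4 tested were called lower. No marker of these lists was at 0 in a BAT group. The part of the progenitor, Schwann cell, pericyte and hepatocyte markers in the changes of the 7 called genes was not tested. With the lymphocyte score as a covariate 4 of the 7 BAT calls were kept, and the genes called among all those tested went from 9200 to 5248. The calls of Peg3, Cdkn1c and Plagl1 were lost, with log2 changes of 0.79, 0.64 and -0.64 (edgeR adjusted p = 0.291, 0.139 and 0.214).

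**Figure D4:**
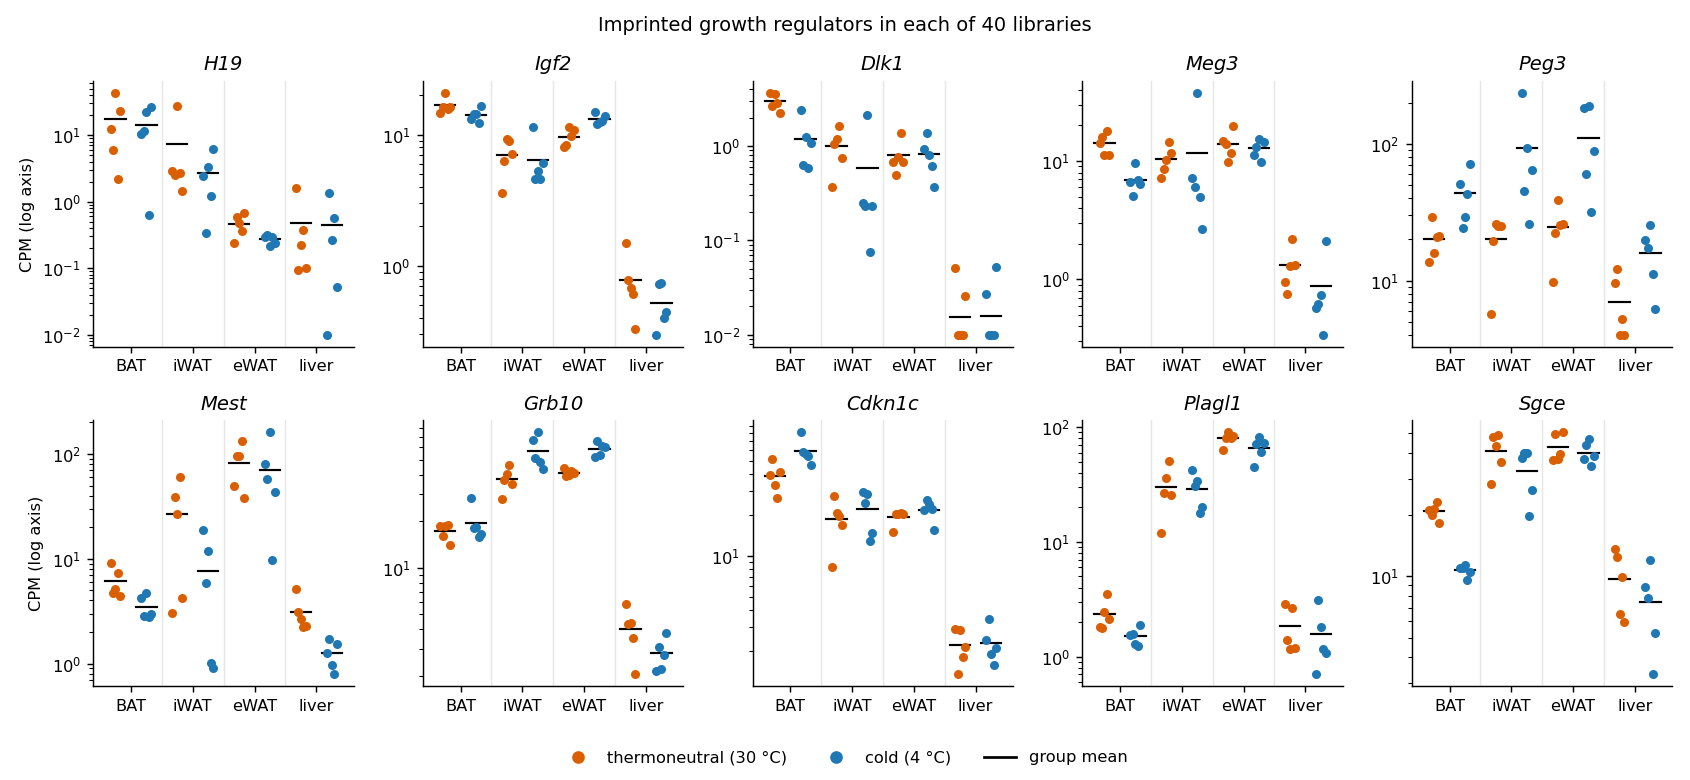
CPM (log axes) of each of the 10 genes in all 40 libraries, with a line at each group mean; a listed value of 0 is drawn at 0.01. The means of Plagl1, Mest, Grb10 and Sgce are highest in white fat and those of Cdkn1c and Dlk1 in BAT, and liver has the lowest means of Igf2, Dlk1, Meg3, Peg3, Mest, Grb10, Cdkn1c and Sgce.

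Between depots at thermoneutrality, 7 of the 10 genes differed between iWAT and BAT and 8 between eWAT and BAT, beside 47.3% and 61.9% of all genes. In iWAT 4 were higher and 3 lower (24.7% and 22.6% of all genes), and in eWAT 4 were higher and 4 lower (38.4% and 23.5%). The groups did not overlap for 5 genes (39.7% of all genes) and 8 genes (48.7%). Of the genes higher in white fat, Plagl1 gave the widest contrast: 2.33 ± 0.712 CPM in BAT, 30.3 ± 14.5 in iWAT and 79.9 ± 9.899 in eWAT (SD, n = 5). It was 13.02-fold higher in iWAT than in BAT (log2 3.70 ± 0.35, edgeR adjusted p = 7.74e-11) and 34.3-fold higher in eWAT (5.10 ± 0.37, 8.41e-14). Mest, Grb10 and Sgce were also higher in both white depots, by log2 2.12 ± 0.68, 1.11 ± 0.19 and 0.98 ± 0.23 in iWAT and 3.74 ± 0.72, 1.25 ± 0.19 and 1.04 ± 0.23 in eWAT. The edgeR adjusted p-values ran from 8.61e-06 to 0.00952 and from 8.13e-07 to 0.000246, and the Mest call in iWAT was lost without iWAT thermoneutral replicate 4 (1.58, adjusted p = 0.0561). All 8 progenitor markers were higher in iWAT than in BAT and 6 of 8 were higher in eWAT, and their part in these differences was not tested.

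Igf2, Cdkn1c and Dlk1 were lower in both white depots than in BAT. The log2 differences were -1.24 ± 0.27, -1.05 ± 0.25 and -1.58 ± 0.62 in iWAT (edgeR adjusted p = 0.000205, 0.000721 and 0.0333) and -0.79 ± 0.26, -0.99 ± 0.25 and -1.91 ± 0.62 in eWAT (0.01, 0.000979 and 0.00863). These lower levels depended on the scaling. With library totals the median of all genes moved by 0.815 in iWAT and 0.941 in eWAT, all 3 genes lost the call in both depots, and Igf2 in eWAT turned to 0.16. The higher levels of Plagl1, Mest, Grb10 and Sgce held under both scalings. The Dlk1 call in iWAT was also lost without BAT thermoneutral replicate 1 or 3 or iWAT thermoneutral replicate 1, 2 or 5 (-1.36 to -1.59, adjusted p from 0.057 to 0.0946). H19 was lower in eWAT than in BAT by log2 -5.21 ± 1.04 (37.01-fold, edgeR adjusted p = 6.75e-05), in libraries that also had less skeletal muscle RNA: all 7 muscle markers were lower, and their part in this difference was not tested. In iWAT H19 differed by -1.23 ± 0.88 (edgeR adjusted p = 0.259), and by -2.87 without iWAT thermoneutral replicate 3 (adjusted p = 0.0103).

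Meg3 and Peg3 did not differ between depots by the test. Their differences were -0.44 ± 0.44 and 0.0 ± 0.50 for iWAT against BAT and -0.01 ± 0.44 and 0.29 ± 0.50 for eWAT against BAT, with edgeR adjusted p-values of 0.437, 1, 0.983 and 0.629. With library totals Meg3 turned to 0.37 and 0.91, neither called, and Peg3 in eWAT was 1.25 higher and called (edgeR adjusted p = 0.0223). Between the white depots, 2 genes differed, 1 higher and 1 lower in eWAT, beside 36.9% of all genes (24.2% higher and 12.7% lower), and both were without overlap (21.1%). Plagl1 was higher in eWAT by log2 1.40 ± 0.31 (edgeR adjusted p = 0.000731) and H19 was lower by log2 -3.98 ± 0.99 (0.00204). Mest was 1.62 ± 0.66 higher in eWAT and just missed the threshold (edgeR adjusted p = 0.0507).

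**Figure D5:**
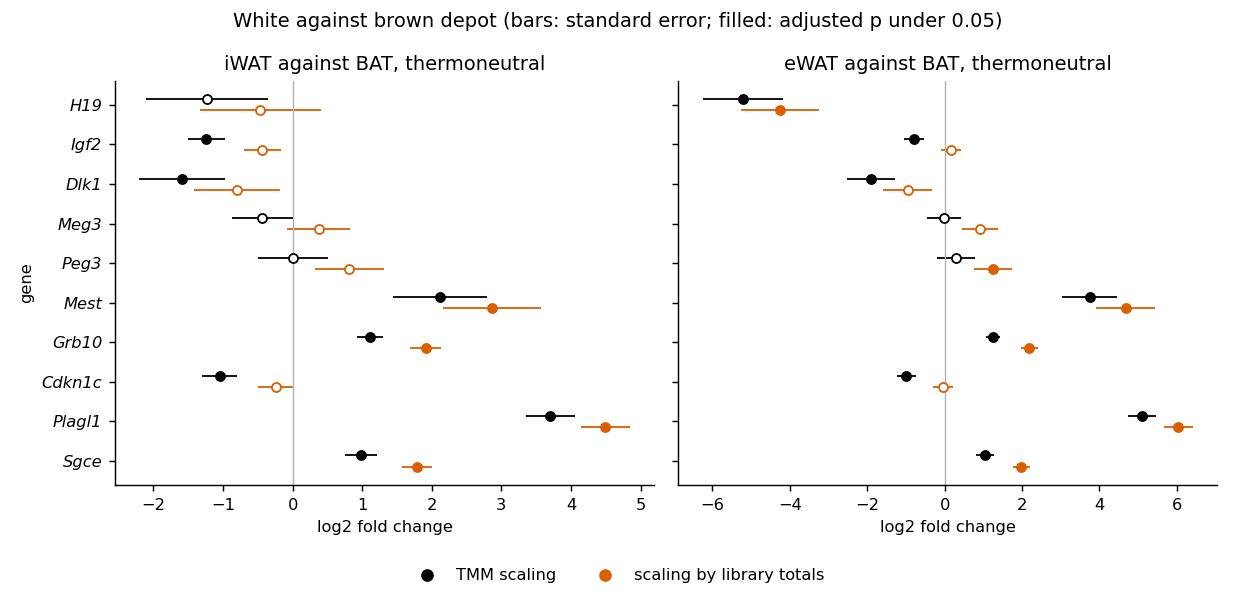
Log2 fold change of the 10 genes in thermoneutral iWAT and eWAT against thermoneutral BAT, with bars for the standard error; filled points have an edgeR adjusted p under 0.05. Black points use TMM scaling and orange points use library totals, which shift the median of all genes by 0.815 and 0.941; Plagl1, Mest, Grb10 and Sgce are higher under both, and Igf2, Cdkn1c and Dlk1 are called lower under TMM only.

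The order of group means shows these patterns across the study. Plagl1 ran from 79.9 ± 9.899 CPM in thermoneutral eWAT through cold eWAT and both iWAT groups to BAT and liver, and its BAT and liver ranges overlapped. The eWAT and iWAT ranges also overlapped. Mest followed much the same order, with overlap between the ranges of eWAT and iWAT and between those of BAT and liver. Its iWAT libraries, from 0.913 to 60.3 CPM, also spanned the whole range of BAT and overlapped with liver. Grb10 was highest in cold eWAT and cold iWAT, whose ranges overlapped, then in their thermoneutral groups, then in BAT. Cold iWAT overlapped with both thermoneutral white groups, and thermoneutral iWAT with cold BAT. Sgce was highest in eWAT and iWAT, whose ranges overlapped, thermoneutral BAT overlapped with cold iWAT, and cold BAT overlapped with liver. Cdkn1c was highest in cold BAT and then thermoneutral BAT, which overlapped with each other, and its 4 white fat groups overlapped. Thermoneutral BAT also overlapped with both iWAT groups. Peg3 was highest in cold eWAT, cold iWAT and cold BAT, whose ranges overlapped, and its 3 thermoneutral adipose groups also overlapped. Igf2 was highest in BAT, where both exposures overlapped with each other and with cold eWAT. H19 and Dlk1 were highest in thermoneutral BAT, each with overlap with cold BAT. The H19 range of BAT also overlapped with those of iWAT, eWAT and liver, and the Dlk1 range of cold BAT with both white depots. Meg3 had overlapping ranges in thermoneutral BAT, both eWAT groups and iWAT, and its mean in cold BAT was the lowest of the adipose groups. Per length, the highest means were 28.97 CPM per kb for Cdkn1c in cold BAT, 20.8 for Mest and 10.2 for Plagl1 in thermoneutral eWAT, and 8.26 for Peg3 in cold eWAT.

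The cold effect of none of the 10 genes was shown to differ between depots. By edgeR's quasi-likelihood test of the interaction, 0 of 10 were called for iWAT minus BAT, eWAT minus BAT and eWAT minus iWAT, beside 18.9%, 23.0% and 0.159% of all genes. At an unadjusted p under 0.05 the counts were 0, 1 (Sgce) and 0. The largest differences on the log2 scale were 1.19 ± 0.62 for Meg3 and -1.16 ± 1.23 for H19 in iWAT minus BAT, 1.37 ± 0.86 for Dlk1 in eWAT minus BAT, and 1.57 ± 0.92 for Mest in eWAT minus iWAT.

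Liver held little of these RNAs. In the cold, all 10 genes were lower in liver than in the mean of the 3 cold adipose depots, beside 39.3% of all genes called lower (69.2% in either direction). Not every single depot was above liver. H19 averaged 0.444 CPM in cold liver and 0.272 CPM in cold eWAT, and Plagl1 1.58 CPM in cold liver and 1.51 CPM in cold BAT. The differences ran from -1.70 ± 0.21 for Sgce to -5.36 ± 0.83 for Dlk1 on the log2 scale, with edgeR adjusted p-values from 9.63e-19 to 0.0199. The H19 call was lost without liver cold replicate 1 or 5 (-1.995 and -2.03, adjusted p = 0.0569 and 0.0584), and library totals moved the median of all genes by -0.931. The groups did not overlap for 5 of the 10 genes (28.0% of all genes). Dlk1 was listed at 0 in 3 of 5 libraries of each liver exposure. Between exposures in liver, 0 of 8 tested genes were called by edgeR, with 2 at an unadjusted p under 0.05 and 2 called by DESeq2. Mest had 5.13, 3.07, 2.65, 2.23 and 2.26 CPM at thermoneutrality and 1.25, 1.7, 0.958, 0.794 and 1.54 CPM in the cold, without overlap (log2 -1.21 ± 0.30, edgeR adjusted p = 0.056). Peg3 had 9.58, 12.1, 4.04, 5.25 and 4.02 CPM and 19.8, 17.2, 25.5, 11.2 and 6.198 CPM, and 3 of the cold libraries were above the whole thermoneutral range (1.29 ± 0.42, 0.102). Both passed without liver cold replicate 5 (Mest -1.29, adjusted p = 0.0225; Peg3 1.51, adjusted p = 0.0198).

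The partners of these genes in insulin-like growth factor signalling were read from a list of 20 genes. Beside a ligand, receptors, binding proteins and adaptors, it held the proteases Htra1, Pappa and Pappa2, the protease inhibitor Stc2 and RNA-binding proteins of the Igf2bp family. In BAT 3 of 15 tested were called higher and 4 lower, in iWAT 3 and 1 of 18, in eWAT 3 and 1 of 20, and in liver 0 of 15. The 7 of 15 in BAT were below the 60.2% of all genes called there, and the shares of all genes were 11.5%, 3.78% and 1.66% in the other 3 tissues. Igfbp3, the main carrier protein of IGFs, rose in all 3 depots. It had 10.9, 13.6, 15.9, 13.2 and 11.6 CPM in thermoneutral BAT and 119, 79.5, 84.3, 72.3 and 78.4 CPM in cold BAT, far apart. Its log2 changes were 2.76 ± 0.15 in BAT, 2.0 ± 0.18 in iWAT and 1.32 ± 0.14 in eWAT (edgeR adjusted p = 6.8e-08, 0.000584 and 0.00315). Insr, the insulin receptor that Grb10 binds, rose by 1.13 ± 0.12, 0.76 ± 0.16 and 0.44 ± 0.06 (edgeR adjusted p = 7.82e-06, 0.0179 and 0.00905), and neither gene's groups overlapped in any depot. The carrier Igfbp4 rose in iWAT (0.71 ± 0.15, edgeR adjusted p = 0.0155) and in eWAT (0.55 ± 0.11, 0.0244), where the call was lost without thermoneutral replicate 2, 3, 4 or 5 or cold replicate 2, 4 or 5 (adjusted p from 0.0511 to 0.0628). The adaptor Irs1 fell in BAT (-0.98 ± 0.13, edgeR adjusted p = 5.14e-05). The ligand Igf1 also fell there, without overlap (-1.79 ± 0.27, edgeR adjusted p = 0.00021). The gene called lower in iWAT and in eWAT was Igfals (-1.02 ± 0.28 and -1.80 ± 0.39, edgeR adjusted p = 0.0403 and 0.0367). Igf1 and Igfals were not followed under the alternative settings.

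Dlk1 belongs to the family of Delta proteins, and a list of 18 Delta and Notch genes was read beside it. Beside the ligands, receptors, cofactors and targets of Notch signalling, the 18 included Fn1 and Sox9. In BAT 2 of 17 tested were called higher and 8 lower, in iWAT 1 and 1, in eWAT 0 and 1, and in liver 0 of 15. The 10 of 17 in BAT were near the 60.2% of all genes called there, and the 2 of 17 in iWAT near its 11.5%. Of all genes 3.78% were called in eWAT and 1.66% in liver. In BAT the ligand Dll4 fell by 1.85 ± 0.25 on the log2 scale, the Notch target Nrarp fell by 1.13 ± 0.18 and the receptor Notch2 fell by 0.71 ± 0.10 (edgeR adjusted p = 8.36e-05, 0.000217 and 6.84e-05). The 2 called higher there were the Notch target Hey1 (0.98 ± 0.18, edgeR adjusted p = 0.000499) and the ligand Jag2 (0.56 ± 0.10, 0.000601). In iWAT Nrarp fell (-1.01 ± 0.23, edgeR adjusted p = 0.0207) and the target Hey1 rose (0.72 ± 0.14, 0.0115). In eWAT Dll4 fell (-0.61 ± 0.12, edgeR adjusted p = 0.0269), a call that was lost without any single library other than cold replicate 3 (adjusted p from 0.0509 to 0.071).

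Of 49 other imprinted genes and cluster neighbours, 36 were tested in BAT, and 6 were called higher and 18 lower, with a median log2 change of -0.48 beside -0.04 for all genes. In iWAT 5 were called higher and 3 lower of 38, in eWAT 1 and 3 of 40, and in liver 0 of 31. Of all genes 30.2% were called higher and 30.0% lower in BAT, and 11.5%, 3.78% and 1.66% were called in either direction in iWAT, eWAT and liver. Ndn, a growth suppressor of the Prader-Willi region that restrains the formation of adipocytes in mice, fell in all 3 depots without overlap. It had 40.4, 42.6, 67.5, 41.1 and 65.8 CPM in thermoneutral BAT and 11.7, 18.9, 20.5, 17.3 and 15.9 CPM in cold BAT, and its log2 changes were -1.58 ± 0.19, -1.32 ± 0.28 and -1.01 ± 0.14 in BAT, iWAT and eWAT (edgeR adjusted p = 3.56e-05, 0.0168 and 0.00803). In eWAT it was -0.90 and not called without both libraries that held epididymis markers (adjusted p = 0.071). In BAT the noncoding RNAs Airn and Peg13 and the splicing factor gene Zrsr1 had the smallest p-values, with changes of -2.31 ± 0.15, -1.04 ± 0.06 and -1.39 ± 0.09 (edgeR adjusted p = 2.01e-07, 1.19e-07 and 2.45e-07). Airn overlaps Igf2r and Zrsr1 lies within Commd1, both on the other strand, and Peg13 lies within Trappc9. Their counts may include reads of those genes, which was not tested. In BAT the changes were -0.17 for Igf2r, 0.32 for Commd1 and -0.33 for Trappc9. In iWAT Nap1l5 rose (1.36 ± 0.20, 0.0052 by edgeR), as did Kcnq1ot1, the noncoding RNA of the Cdkn1c cluster (0.75 ± 0.15, 0.015). With library totals the Kcnq1ot1 value in iWAT was 0.63 and not called (adjusted p = 0.0636). Kcnq1ot1 lies within Kcnq1 on the other strand, and without strand reads shared by both cannot be told apart. Kcnq1 itself fell in iWAT (-0.99 ± 0.22, edgeR adjusted p = 0.0186). In eWAT Ppp1r9a, a neighbour of Sgce, fell (-0.39 ± 0.08, edgeR adjusted p = 0.0328), and the call was lost without any single library other than cold replicate 3 (adjusted p from 0.0595 to 0.104).

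Within groups, most of the 10 genes correlated positively from library to library, H19 least. Of 45 pairs of members, 44 had a positive Pearson r of log2 CPM over the 30 adipose libraries after centring each of the 6 groups, with a median of 0.49 and a range from -0.06 to 0.76. The r of H19 was 0.40 with Igf2 and 0.28 with Dlk1, and -0.06 to 0.13 with the other 7. Pairs of genes outside the list were not computed. These points share their library, its depth and its mix of cell types, and r is given as a description. The genes most like each member, among 14306 genes, were Rian (r = 0.94) and Tnxb (0.92) for Meg3, Usp13 (0.90) and Tcea3 (0.89) for H19, Pkp2 (0.89) and Sparc (0.89) for Sgce, and Tuba1a (0.89) and Emp1 (0.88) for Mest. For Grb10 they were Slc12a4 (0.87) and Trip6 (0.82), for Plagl1 Wwc2 (0.86) and Fkbp14 (0.86), and for Dlk1 Ddah2 (0.82) and B4galt2 (0.81). For Peg3 they were Rusc2 (0.84), at 0.85, 0.86 and 0.86 within BAT, iWAT and eWAT, and Mcam (0.78), for Igf2 Afap1l1 (0.81) and Trim16 (0.81), and for Cdkn1c Tmem216 (0.81) and Hspa12b (0.81). Likeness was not always shared by the depots. For Usp13 with H19 r was 0.96 and 0.86 in BAT and iWAT, and -0.19 in eWAT. In the same order r was 0.96, 0.92 and -0.02 for Slc12a4 with Grb10. It was 0.09, 0.97 and 0.77 for Mcam with Peg3, and 0.20, 0.92 and 0.80 for Tmem216 with Cdkn1c.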

How the data were processed

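The authors deposited raw counts per gene symbol as whole numbers, 1 column per library. The deposited values were treated like the expected counts of RSEM, which is named, and were not changed except for repeated symbols. FastQC, STAR 2.7.8a, RSEM 1.3.0, DESeq and the builds GRCm39 and GRCm38 are named, without roles, in the submitters' processing notes. Libraries were made with a kit that keeps no strand, per the labels' protocols. The table had 260093 lines and 53863 symbols. Lines of a repeated symbol (78 symbols) were summed, and the sum was divided by the square root of the number of its lines. Each symbol on n times n lines held at most n different lines in the 5 thermoneutral liver columns, and at most n in the 35 others. Over all columns 42 of the 78 symbols held more than n. The 5 thermoneutral liver columns were therefore inferred to come from a table of their own, which the labels do not state. Positions are from GENCODE M21 on GRCm38.

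Each tissue was fitted with edgeR 4.0.16 (TMM scaling, filterByExpr with a minimum count of 10 and a minimum total of 15, quasi-likelihood F test) in R 4.3.3, with Benjamini-Hochberg adjustment over all genes tested and a threshold of 0.05. Depots, interactions and liver against fat were contrasts in 1 fit of all 40 libraries in 8 groups. SE is the log2 change divided by the root of F. CPM values use TMM sizes over 20756 genes of all 40 libraries. The fit was tested on simulated data.

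Alternatives were DESeq2 1.42.0, its size factors in edgeR, library totals, no filter, a replicate block and each library left out. Marker scores, the mean log2 CPM of a marker list, were also used as covariates. The members and lists were chosen with earlier results of these data known. Beside the members, the text names the 3 called genes with the smallest p-values of each list and tissue and the 2 genes most like each member, with exceptions stated (Ndn was also followed in BAT, and Hey1 and Jag2 are also named there). Genes that overlap a named gene, and Igf1 and Igfals, are also named and were chosen after values were seen. The lowest chi-square per gene between libraries of a group was 29.46, so none was a duplicate. Equal replicate numbers were not taken as pairs.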

Additional observations from a re-analysis of the deposited data

Results flagged for a closer look

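In 9 of 80 sets of 5 libraries, 1 gene in 1 group, a single library lay so far from the rest that its gap exceeded 0.71 of the range, which chance gives in about 1 in 20 sets. In iWAT these were H19 in thermoneutral replicate 3 at 27.3 CPM (next 2.84 CPM), Igf2 in cold replicate 1 at 11.4 CPM (next 6.08 CPM), and Dlk1 and Meg3 in cold replicate 3 at 2.11 CPM (next 0.250 CPM) and 37.6 CPM (next 7.14 CPM). In BAT they were Igf2 in thermoneutral replicate 3 at 20.7 CPM (next 16.2 CPM) and Grb10 in cold replicate 1 at 28.3 CPM (next 18.4 CPM). In eWAT Cdkn1c in thermoneutral replicate 1 was low at 14.97 CPM (next 20.2 CPM). In liver H19 in thermoneutral replicate 1 stood at 1.61 CPM (next 0.376 CPM) and Meg3 in cold replicate 5 at 2.11 CPM (next 0.740 CPM).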

How the results depend on the processing

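The number of the 10 members called moved with several settings. Equal replicate numbers were not taken as pairs, since in no comparison was every same-numbered correlation of deviations over 0.1. Cold with thermoneutral they ran from -0.53 to 0.30 in iWAT. Between tissues of 1 exposure some leaned positive. The means were 0.157 for BAT with iWAT and 0.196 for iWAT with eWAT at thermoneutrality, and 0.129 for iWAT with eWAT in the cold. For other numbers they were -0.039, -0.044 and -0.038. In these pairs of groups 1, 3 and 3 of 5 libraries correlated best with their own number. For eWAT with liver in the cold 4 of 5 did, at a mean of 0.026 (-0.006 for other numbers). The replicate block left 0 members called in iWAT and 0 in eWAT (Grb10 0.49, adjusted p = 0.0781), and 1 in the interaction of eWAT minus BAT. With the lymphocyte score as a covariate 4 were called in BAT, 3 in iWAT and 0 in eWAT. Library totals gave 0 in iWAT, 4 in iWAT against BAT and 1 in the interaction of eWAT minus BAT, and no filter gave 0 in iWAT. DESeq2 called 2 in iWAT, 3 in eWAT and 2 in liver. Leaving out 1 library gave 6 to 7 in BAT, 0 to 2 in iWAT, 1 to 2 in eWAT, 0 to 2 in liver, 6 to 8 in iWAT against BAT, 8 in eWAT against BAT, 2 to 3 in eWAT against iWAT, 0 to 1 in eWAT minus BAT and 9 to 10 in cold liver.

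On the log2 scale these changes turned sign. In BAT they were H19 with the muscle (0.41) and lymphocyte score (0.022) and Grb10 with the lymphocyte score (-0.053). In iWAT they were Meg3 with the block (-0.54), the muscle score (-0.27) and the lymphocyte score (-1.23) and Cdkn1c with the last (-0.34). In eWAT they were Dlk1 with the block (-0.024), the muscle score (-0.12) and the lymphocyte score (-0.90), and with the last Meg3 (0.50), Sgce (0.0698), Cdkn1c (-0.24) and Rian (0.27). Without both libraries with epididymis markers, a choice made after seeing the data, Meg3 (0.033), Mest (0.11) and Sgce (0.018) turned. Library totals turned Cdkn1c in liver (-0.048), Meg3 in iWAT (0.37) and eWAT (0.91) against BAT, Igf2 in eWAT against BAT (0.16), Igf2 in iWAT minus BAT (-0.064) and, in eWAT minus iWAT, Peg3 (0.10), Grb10 (0.0304) and Cdkn1c (0.0604). The block turned Peg3 in iWAT against BAT (-0.038) and, in eWAT minus iWAT, Meg3 (0.073) and Peg3 (0.034). Meg3 in eWAT against BAT was 0.025 with DESeq2 size factors and 0.0017 with no filter.

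Leaving out 1 library turned the sign within these ranges: in BAT H19 (-0.57 to 0.41); in iWAT H19 (-2.06 to 0.15), Meg3 (-1.04 to 0.36) and Plagl1 (-0.29 to 0.19); in eWAT Dlk1 (-0.22 to 0.34), Meg3 (-0.24 to 0.021) and Mest (-0.75 to 0.0705); in liver Cdkn1c (-0.0805 to 0.24) and Plagl1 (-0.56 to 0.066). Between depots they were Peg3 in iWAT against BAT (-0.11 to 0.25), Meg3 in eWAT against BAT (-0.18 to 0.092) and, in eWAT against iWAT, Cdkn1c (-0.21 to 0.17), Grb10 (-0.018 to 0.23), Peg3 (-0.037 to 0.40) and Sgce (-0.12 to 0.13). For iWAT minus BAT they were Dlk1 (-1.0 to 0.97), H19 (-1.82 to 0.47) and Igf2 (-0.22 to 0.21), and for eWAT minus iWAT Cdkn1c (-0.27 to 0.10), Grb10 (-0.19 to 0.017), H19 (-0.96 to 1.25), Meg3 (-0.54 to 0.88) and Peg3 (-0.33 to 0.66). The causes were not tested.

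Counts of all genes called moved too. BAT went from 9200 to 5248 with the lymphocyte score. iWAT went from 1926 to 1217 with no filter, 108 with the block and 3352 by DESeq2, and eWAT from 722 to 372, 22 and 2150. The eWAT count went to 477 with the muscle score, 0 with the lymphocyte score and 173 without both epididymis libraries. Liver went from 240 to 16 with library totals, 5 with the block and 1644 by DESeq2, and eWAT minus iWAT from 33 to 18, 13 with no filter and 16. Leaving out 1 library gave 961 to 2652 in iWAT, 293 to 519 in eWAT, 0 to 2384 in liver and 9 to 173 in eWAT minus iWAT. With library totals the share of calls that were higher moved from 62.7% to 46.1% in iWAT, from 60.8% to 31.2% in liver, from 52.3% to 90.2% and from 62% to 91.6% in iWAT and eWAT against BAT, from 65.5% to 77.6% in eWAT against iWAT, from 56.2% to 37% in iWAT minus BAT, and from 43.2% to 16.2% in cold liver. It moved the median of all genes by -0.118 in iWAT, -0.168 in liver, 0.122 in eWAT against iWAT, -0.164 in iWAT minus BAT and 0.148 in eWAT minus iWAT.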
